A study of Mus musculus with 9 samples.

Results

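Interferons act through a short relay in which a receptor at the cell surface activates JAK kinases, the kinases phosphorylate STAT proteins, and the STATs enter the nucleus and switch on interferon-stimulated genes. Type I interferon signals through a receptor built from Ifnar1 and Ifnar2 with the kinases Jak1 and Tyk2, and it produces the complex ISGF3, which contains Stat2 and Irf9. Type II interferon signals through Ifngr1 and Ifngr2 with Jak1 and Jak2, and *Irf1* is among its classic targets, while Socs1 is induced by the pathway and inhibits its kinases.

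Here 9 genes of this relay were examined by gene symbol, the receptor genes *Ifnar1*, *Ifnar2* and *Ifngr1*, the kinase genes *Jak1* and *Jak2*, the transcription factor genes *Stat2*, *Irf1* and *Irf9*, and the inhibitor gene *Socs1*. Values were found for 8 of the 9 genes, among 14819, 14986 and 14908 genes in the tables for Nrf1 and LacZ, Nrf2 and LacZ, and Nrf1 and Nrf2. *Ifnar2* was not analysed here. All 8 genes had a mean above 0 in every group, and for 7 of them the mean reached 100 in a group of each table, the exception being *Socs1*.

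The cells were NRVMs, ventricular cardiomyocytes of newborn Sprague Dawley rats (age 1 to 2 days) that were kept for 48 h in culture medium with 3% serum before infection with adenovirus at a multiplicity of infection of 50. Each group carried a virus for 1 protein, Adeno-LacZ (a bacterial enzyme, the control), Adeno-Nrf1 or Adeno-Nrf2, with 3 libraries per group and 9 in all, made from RNA collected 48 h after infection. According to the study's methods the lacZ, mouse Nrf1 and mouse Nrf2 coding regions were placed in a vector with the CMV promoter, which is not restricted to cardiomyocytes, and with a red fluorescent protein. All groups were therefore infected cells, and no uninfected cells were among them. The labels name mouse as the organism of the samples and rat as the origin of the cells, and the reads were aligned to the rat genome.

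For each pair of groups the deposited table gives the mean of each group, that is, read counts divided by size factors and averaged by the authors over the libraries of the group. The tables hold no columns per library, the p-values in them were not used, and no counts per library were reconstructed, so no SD, no standard error and no test between samples are given and every difference described below is a ratio of 2 means. The lowest means of a group recur at 3 steps, which are the worth of 1 read in each of its 3 libraries, and 100% of the low values were sums of whole reads on these steps. On this basis the genes of a group held between 25777509 (LacZ) and 33601652 (Nrf2) counted reads in its 3 libraries together, and the number of reads behind each mean was estimated. Each log2 ratio is given with a 95% counting interval from these reads, which covers counting error only and not the spread between cultures. A gene was counted as lower or higher at a ratio of at least 1.5-fold, the fold cutoff of the study's methods, without its criterion on p-values. The 2 tables with LacZ share the same LacZ libraries, and the LacZ means in them differed by a nearly constant factor, between 1.067 and 1.069 for genes whose LacZ mean reached 100, so that levels are set beside each other within a table only.

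All 7 cardiomyocyte markers with values (among them *Tnnt2*, *Myh6* and *Actn2*) had means above 0 in every group. Their summed mean was 88584 in LacZ samples of the table for Nrf1. Fibroblast, leukocyte, endothelial and smooth muscle markers were present as well, and none of them had a mean of 0 in any group. The 8 fibroblast markers had a summed mean of 117423 in the same LacZ samples. Means above 0 therefore do not set the labelled cell type apart from the others. In bulk RNA, fewer cells of a type and less RNA per cell cannot be told apart. *Nfe2l2*, which encodes Nrf2, had a log2 ratio of 4.43 in Nrf2 over LacZ samples, and *Nfe2l1*, which encodes Nrf1, was not analysed here. The virus carried the mouse Nrf2 coding region and reads were aligned to the rat genome. How fully this ratio counts the viral transcript was not tested.

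In Nrf1 samples, *Stat2*, *Irf9*, *Ifngr1*, *Irf1* and *Socs1* were at least 1.5-fold lower than in LacZ samples, and none of the 8 genes was 1.5-fold higher. Lower values at this cutoff were found for 5 of the 8 genes, compared with 21.9% of all genes above 0 in both groups (13.5% were higher). Of the 7 genes whose mean reached 100 in a group, 4 were lower, beside 11.9% of all genes at that level (11.6% were higher). The median log2 ratio of the 8 genes was -0.69, and that of all genes was -0.03. In Nrf2 samples only *Stat2* and *Irf9* were 1.5-fold lower than in LacZ samples, 2 of 8 genes beside 14.1% of all genes, and again 0 were higher, beside 12.9%. Among genes whose mean reached 100 in a group, 6.66% were lower and 7.64% higher in that table. The median log2 ratio was -0.24 there, and -0.01 over all genes. In Nrf2 over Nrf1 samples, *Stat2*, *Irf9* and *Socs1* were 1.5-fold higher, 3 of 8 genes beside 16.8% of all genes, and 0 were lower, beside 7.39%. Among genes whose mean reached 100, 7.48% were higher and 4.24% lower. The median log2 ratio of the 8 genes was 0.38 there, and 0.01 over all genes. All 8 genes had a log2 ratio above 0 in this direct comparison, between 0.11 and 1.28, where 51.3% of all genes, and 45.3% of those reaching a mean of 100, lay above 0.

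**Figure D1:**
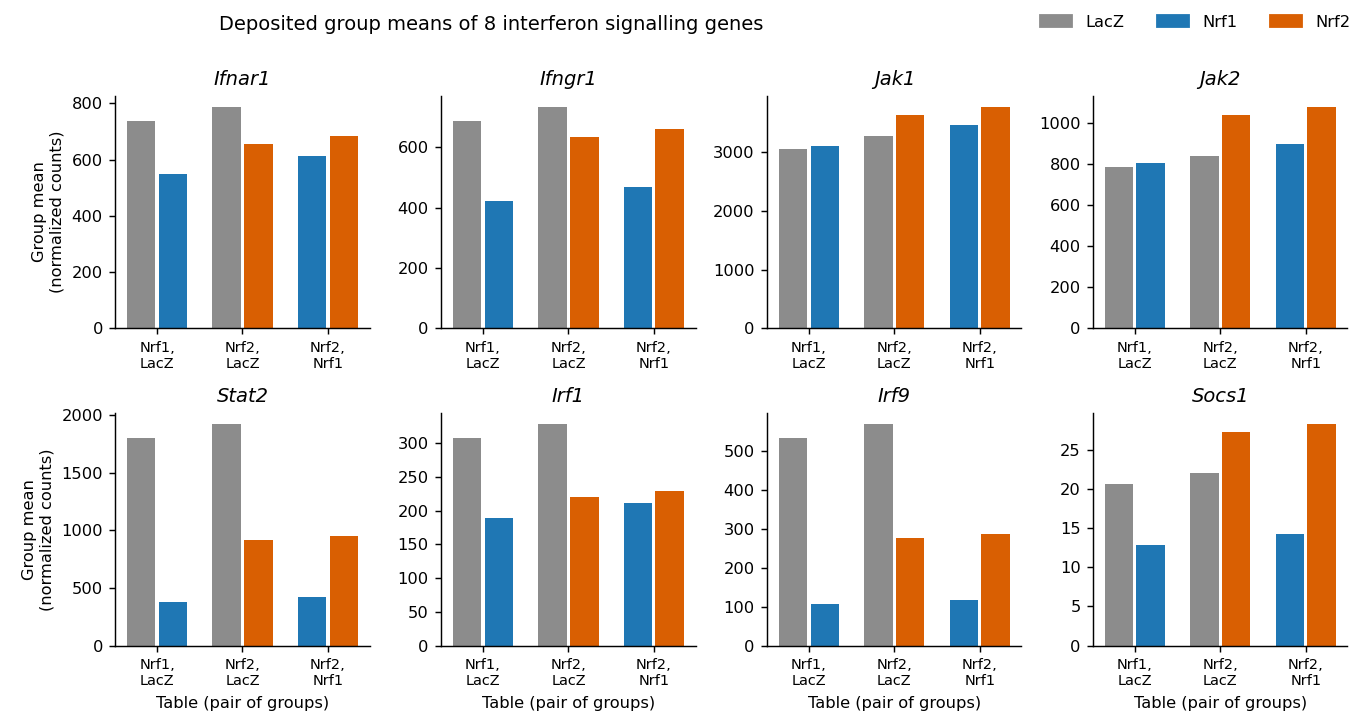
Deposited group means (normalized counts, linear axis from 0) of the 8 genes in the 3 tables; each pair of bars is 1 table, and grey, blue and orange stand for LacZ, Nrf1 and Nrf2 samples, with no error bars because no values per library are in the tables. *Stat2* and *Irf9* step down from LacZ to Nrf2 to Nrf1, while the bars of *Jak1* and *Jak2* are nearly level in the table for Nrf1 and LacZ.

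At the receptors, *Ifngr1* was 1.5-fold lower in Nrf1 samples and *Ifnar1* was within 1.5-fold. *Ifngr1*, the ligand-binding chain of the type II receptor, averaged 688 in LacZ samples and 421 in Nrf1 samples, a log2 ratio of -0.71 (95% counting interval -0.81 to -0.61). In the table for Nrf2 its means were 735 in LacZ samples and 636 in Nrf2 samples, a log2 ratio of -0.21 (-0.30 to -0.12). When Nrf2 and Nrf1 samples were compared directly, *Ifngr1* was higher in Nrf2 samples, at 660 and 469, with a log2 ratio of 0.49 (0.39 to 0.59). The difference between Nrf1 and LacZ samples thus passed 1.5-fold, and the other ratios did not.

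*Ifnar1*, a chain of the type I receptor, had a mean of 738 in LacZ and 548 in Nrf1 samples, a log2 ratio of -0.43 (-0.52 to -0.34). With Nrf2 its means were 788 in LacZ and 657 in Nrf2 samples, a log2 ratio of -0.26 (-0.35 to -0.18). The direct comparison gave 611 in Nrf1 and 683 in Nrf2 samples, a log2 ratio of 0.16 (0.07 to 0.25). *Ifnar1* was lowest in Nrf1 samples and highest in LacZ samples, and every ratio was within 1.5-fold.

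*Ifngr2*, the partner of *Ifngr1*, and the type III receptor chains *Il10rb* and *Ifnlr1* were not lower than in LacZ samples. *Ifnar2*, the partner of *Ifnar1*, was not analysed here. *Ifngr2*, the signalling chain of the type II receptor, had log2 ratios of 0.17 in Nrf1 and 0.01 in Nrf2 over LacZ samples. *Il10rb*, a chain shared by the type III interferon and interleukin-10 receptors, lay above its LacZ level in both tables, with a mean of 252 in LacZ and 363 in Nrf1 samples (log2 ratio 0.53) and of 269 in LacZ and 412 in Nrf2 samples (log2 ratio 0.61). *Ifnlr1*, the specific chain of the type III receptor, had log2 ratios of 0.27 and 0.10 with counting intervals that included 0. Of these 3 further receptor genes, 0 were lower at 1.5-fold in either table with LacZ. Of all genes, 21.9% were lower with Nrf1 and 14.1% with Nrf2, so 0 of 3 is near those shares. *Il10rb* was higher with Nrf2, beside 12.9% of all genes.

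The kinases were close to their LacZ levels in Nrf1 samples. *Jak1*, which serves all interferon receptors, had a mean of 3065 in LacZ and 3115 in Nrf1 samples, a log2 ratio of 0.02 (-0.02 to 0.06). In the table for Nrf2 it had means of 3274 in LacZ and 3639 in Nrf2 samples, a log2 ratio of 0.15 (0.11 to 0.19). The direct comparison gave 3475 in Nrf1 and 3781 in Nrf2 samples, a log2 ratio of 0.12 (0.08 to 0.16). With about 8884 reads behind the LacZ mean, counting error was small for this gene, and its level in Nrf1 and LacZ samples could not be separated beyond it.

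*Jak2*, the second kinase of the type II receptor, had a mean of 785 in LacZ and 804 in Nrf1 samples, a log2 ratio of 0.03 (-0.05 to 0.12). Its means in the table for Nrf2 were 838 in LacZ and 1037 in Nrf2 samples, a log2 ratio of 0.31 (0.23 to 0.38). In the direct comparison its means were 897 in Nrf1 and 1078 in Nrf2 samples, a log2 ratio of 0.27 (0.19 to 0.34). *Jak2* was thus highest in Nrf2 samples, by less than 1.5-fold. Of the 4 kinases of the family, 0 passed 1.5-fold in either direction in any of the 3 tables. Most of all genes stayed within 1.5-fold as well. With Nrf1 21.9% of all genes were lower and 13.5% higher, and with Nrf2 14.1% were lower and 12.9% higher. In Nrf2 over Nrf1 samples, 7.39% were lower and 16.8% higher. *Tyk2*, the second kinase of the type I receptor, had log2 ratios of -0.10 with Nrf1 and -0.11 with Nrf2, and the lymphoid kinase *Jak3* had -0.30 and -0.39.

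**Figure D2:**
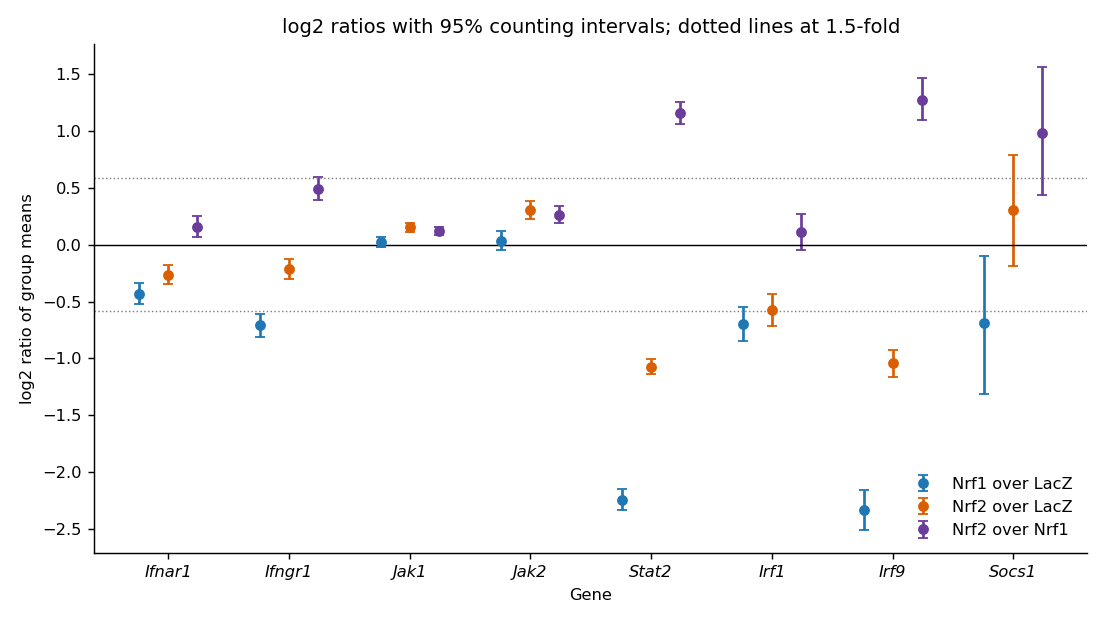
log2 ratios of the deposited group means for the 8 genes in the 3 comparisons (blue, Nrf1 over LacZ; orange, Nrf2 over LacZ; purple, Nrf2 over Nrf1); bars are 95% counting intervals and dotted lines mark 1.5-fold. *Stat2* and *Irf9* have the lowest ratios in both comparisons with LacZ, and the widest intervals are those of *Socs1*.

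The transcription factors carried the largest differences. *Stat2*, the STAT specific to type I and type III signalling, averaged 1801 in LacZ samples and 380 in Nrf1 samples, which is 21.1% of the LacZ mean, a log2 ratio of -2.24 (-2.33 to -2.15). With Nrf2 its means were 1923 in LacZ and 914 in Nrf2 samples, or 47.5% of LacZ, a log2 ratio of -1.07 (-1.14 to -1.01). In the direct comparison *Stat2* had a mean of 424 in Nrf1 and 949 in Nrf2 samples, a log2 ratio of 1.16 (1.06 to 1.26). The order was LacZ, Nrf2, Nrf1 from high to low, and no counting interval of the 3 pairs included 0.

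*Irf9*, which carries the DNA-binding part of ISGF3, had a mean of 532 in LacZ and 106 in Nrf1 samples, or 19.9% of LacZ, a log2 ratio of -2.33 (-2.51 to -2.16). Its means in the table for Nrf2 were 568 in LacZ and 275 in Nrf2 samples, or 48.5% of LacZ, a log2 ratio of -1.04 (-1.16 to -0.93). The direct comparison gave 118 in Nrf1 and 286 in Nrf2 samples, a log2 ratio of 1.28 (1.10 to 1.47). The order of the groups was the same as for *Stat2*. Among 8560 genes that reached a mean of 100 in the table for Nrf1 and LacZ (symbols with 1 row), *Irf9* had the 53rd lowest ratio and *Stat2* the 62nd lowest. Among 8668 such genes in the table for Nrf2, *Stat2* was 153rd and *Irf9* 167th.

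The log2 ratios of *Stat2* and *Irf9* lay 0.09 apart with Nrf1, 0.03 apart with Nrf2 and 0.12 apart in the direct comparison. Their counting intervals overlapped in all 3 comparisons, and no interval for the difference between the pair was computed.

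*Irf1*, a factor induced by type II interferon and by inflammatory signals, differed less. Its mean was 308 in LacZ and 190 in Nrf1 samples, a log2 ratio of -0.70 (-0.85 to -0.55). In the table for Nrf2 its means were 329 in LacZ and 220 in Nrf2 samples, a log2 ratio of -0.58 (-0.72 to -0.43). This value lay just inside the 1.5-fold cutoff and passed it after re-centring on the median gene, at -0.59. Nrf1 and Nrf2 samples had means of 212 and 229 when compared directly, a log2 ratio of 0.11 (-0.04 to 0.27). *Irf1* was thus lower than LacZ to a similar extent in both tables, and the direct difference between the factors was not detectable beyond counting error.

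**Figure D3:**
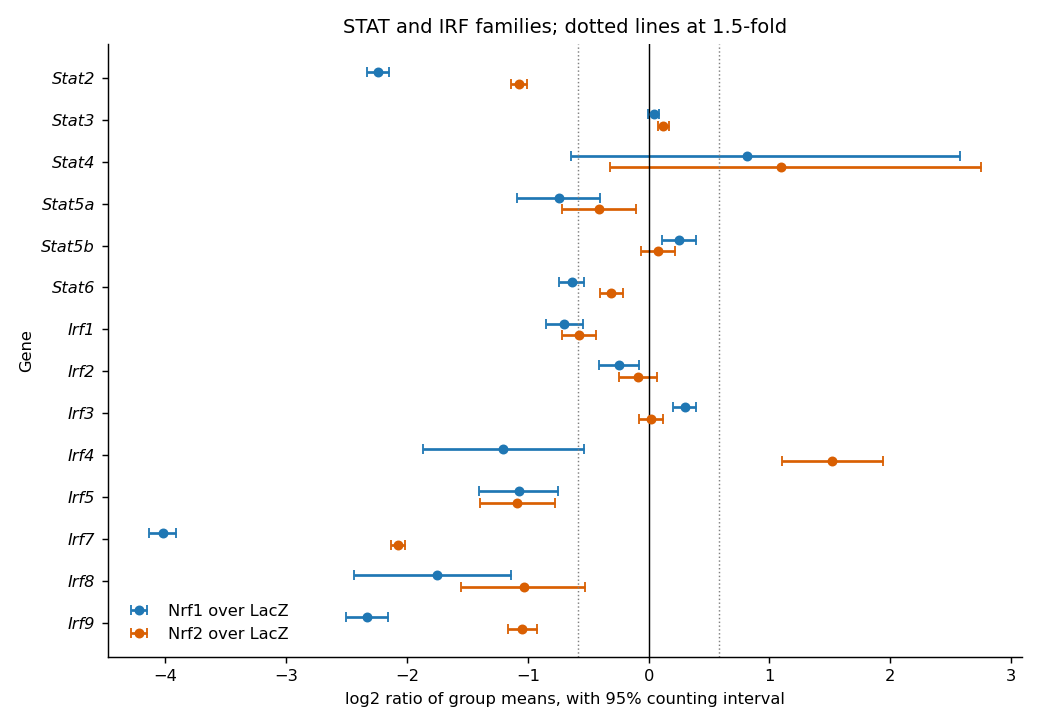
log2 ratios of the deposited group means over LacZ for 6 STAT and 8 IRF genes (blue, Nrf1; orange, Nrf2), with 95% counting intervals and dotted lines at 1.5-fold. *Irf7* has the lowest ratios, *Stat2* and *Irf9* lie together near -1 with Nrf2, and *Irf4* lies on opposite sides of 0.

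Of 6 STAT genes, 3 were lower with Nrf1 (*Stat2*, *Stat5a* and *Stat6*), beside 21.9% of all genes, and 1 with Nrf2 (*Stat2*), beside 14.1% of all genes. Among the 4 STAT genes that reached a mean of 100 in a group, 2 were lower with Nrf1 and 1 with Nrf2. At that level 11.9% and 6.66% of all genes were lower. *Stat3*, the main STAT of the interleukin-6 family, had log2 ratios of 0.04 and 0.12 over LacZ. *Stat6*, the STAT of interleukin-4 signalling, had -0.64 and -0.31, and *Stat5a* had -0.75 and -0.41. *Stat4* passed 1.5-fold upward in both tables, with log2 ratios of 0.81 with Nrf1 and 1.10 with Nrf2, on about 6 reads in LacZ samples and with counting intervals that included 0.

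Among 8 IRF genes, 6 were lower with Nrf1 and 4 with Nrf2, beside 21.9% and 14.1% of all genes. With Nrf2, 1 was higher, beside 12.9% of all genes. Among the 5 IRF genes that reached a mean of 100 in a group, 3 were lower with Nrf1 and 2 with Nrf2. At that level 11.9% and 6.66% of all genes were lower. *Irf7*, the master factor of the amplified type I interferon response and itself a target of ISGF3, had a mean of 3797 in LacZ and 233 in Nrf1 samples, a log2 ratio of -4.02 (-4.13 to -3.92). Its means were 4056 in LacZ and 965 in Nrf2 samples, a log2 ratio of -2.07 (-2.13 to -2.02). *Irf3*, the factor that is present before infection and is activated by phosphorylation, had log2 ratios of 0.30 with Nrf1 and 0.02 with Nrf2.

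*Irf5* and *Irf8*, best known from macrophages and other immune cells, were lower in both tables, with log2 ratios of -1.07 and -1.75 with Nrf1 and of -1.09 and -1.03 with Nrf2. *Irf4*, a factor of lymphoid and myeloid cells, had a mean of 21.7 in LacZ and 9.41 in Nrf1 samples (log2 ratio -1.21) but of 23.2 in LacZ and 66.3 in Nrf2 samples (log2 ratio 1.51). In Nrf2 over Nrf1 samples, 4 IRF genes were higher (*Irf4*, *Irf7*, *Irf8* and *Irf9*) and 0 were lower, beside 16.8% and 7.39% of all genes. *Irf4* and *Irf8* had about 30 and 28 reads in Nrf1 samples. Among the 5 IRF genes that reached a mean of 100, 2 were higher, beside 7.48% of all genes at that level.

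*Socs1*, the inducible inhibitor of JAK kinases, was near the limit of what the depth allowed. Its mean was 20.6 in LacZ and 12.8 in Nrf1 samples, about 60 and 40 reads, a log2 ratio of -0.69 (-1.32 to -0.10). In the table for Nrf2 its means were 22.0 in LacZ and 27.2 in Nrf2 samples, a log2 ratio of 0.31 (-0.19 to 0.79). The direct comparison gave 14.3 in Nrf1 and 28.3 in Nrf2 samples, a log2 ratio of 0.99 (0.44 to 1.56). *Socs1* was lowest in Nrf1 samples, and its levels in Nrf2 and LacZ samples could not be separated at this depth.

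Of the 17 inhibitors of the pathway with values, 5 were lower with Nrf1 and 2 with Nrf2, beside 21.9% and 14.1% of all genes. Among the 14 inhibitors that reached a mean of 100 in a group, 3 were lower with Nrf1 and 2 with Nrf2. At that level 11.9% and 6.66% of all genes were lower, so how the share with Nrf2 compares depends on the genes set beside it. In neither table was an inhibitor 1.5-fold higher. The lower genes with Nrf1 were *Usp18*, *Ptprc*, *Ptpn6*, *Socs1* and *Pias3*, and those with Nrf2 were *Usp18* and *Ptprc*. *Usp18*, an interferon-stimulated inhibitor that binds Ifnar2, had a log2 ratio of -4.43 with Nrf1 and -1.69 with Nrf2. *Ptprc* encodes the leukocyte surface phosphatase CD45 and is also a leukocyte marker, with log2 ratios of -1.72 and -1.33. *Socs3*, the inhibitor tied to interleukin-6 signalling, had log2 ratios of -0.21 and 0.01 with counting intervals that included 0. The median log2 ratio of the inhibitors was -0.21 with Nrf1 and -0.12 with Nrf2.

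Interferon transcripts themselves were barely counted. *Ifnb1*, the interferon beta gene, averaged 1.80 in LacZ samples, about 5 reads, and is listed at 0 in Nrf1 samples. In the table for Nrf2 it had means of 1.93 in LacZ and 1.21 in Nrf2 samples, about 5 and 4 reads, and no difference was detectable at this depth. *Ifng* and *Ifnk* had about 1 read at most in any group. Other interferon genes were not analysed here.

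Targets of the pathway were lower in both tables. Of 40 interferon-stimulated genes with values, 39 were 1.5-fold lower with Nrf1, beside 21.9% of all genes, with a median log2 ratio of -3.08. With Nrf2, 40 were lower, beside 14.1% of all genes, with a median of -1.51. The list was written with earlier results of these data known. In Nrf2 over Nrf1 samples, 35 of these targets were higher and 1 was lower, beside 16.8% and 7.39% of all genes, with a median of 1.52. *Mx2*, *Oas1a* and *Usp18* had the lowest ratios with Nrf1 among targets that reached a mean of 100, at -5.12, -4.77 and -4.43. With Nrf2 these were *Mx2*, *Gbp5* and *Rsad2*, at -2.31, -2.18 and -2.07. The medians of the targets lay below the log2 ratios of *Stat2* and *Irf9* in both tables with LacZ.

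**Figure D4:**
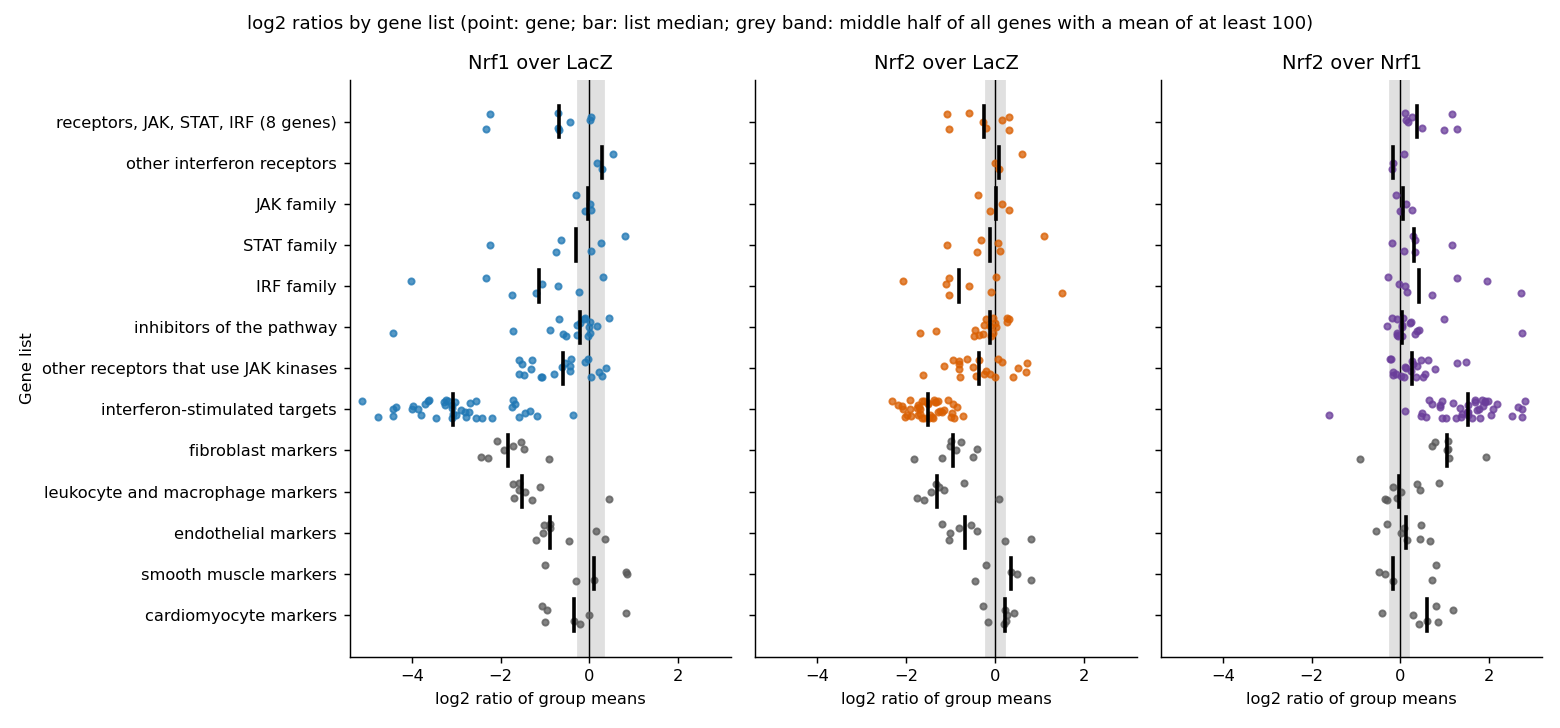
log2 ratios of the deposited group means by gene list for Nrf1 over LacZ, Nrf2 over LacZ and Nrf2 over Nrf1; each point is a gene, black bars are list medians, the grey band runs from the lower to the upper quartile of all genes that reached a mean of 100 in a group, and the dark points below are markers of cell types. Interferon-stimulated targets lie farthest below 0 over LacZ, JAK genes lie near 0, and fibroblast markers lie below 0 over LacZ and, except *Tcf21*, above 0 in Nrf2 over Nrf1.

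Among markers of other cells in the cultures, most fibroblast and leukocyte markers were lower as well. Of all genes, 21.9% were lower and 13.5% higher with Nrf1, and 14.1% were lower and 12.9% higher with Nrf2. Of 8 fibroblast markers, 8 were lower with Nrf1 (median log2 ratio -1.83, summed mean 117423 in LacZ and 30378 in Nrf1 samples) and 6 with Nrf2 (median -0.94, summed mean 125400 in LacZ and 66823 in Nrf2 samples). Of 8 leukocyte and macrophage markers, 7 were lower in each table, with medians of -1.52 with Nrf1 and -1.30 with Nrf2 and summed means that went from 1938 to 994 and from 2070 to 1029. Of 8 endothelial markers, 5 were lower with Nrf1 (median -0.90) and 4 with Nrf2 (median -0.68), where 1 was higher. Cardiomyocyte markers had medians of -0.34 with Nrf1, where 3 of 7 were lower and 1 was higher, and of 0.23 with Nrf2, where 0 of 7 passed 1.5-fold. The 5 smooth muscle markers had medians of 0.11 and 0.36. With Nrf1, 1 of them was lower and 2 were higher, and with Nrf2, 0 were lower and 1 was higher.

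In Nrf2 over Nrf1 samples, where *Stat2* and *Irf9* had log2 ratios of 1.16 and 1.28, the median of the fibroblast markers was 1.05. Of these markers 7 of 8 were higher and *Tcf21* was lower, beside 16.8% and 7.39% of all genes. The median of the leukocyte and macrophage markers was -0.04 there, with 1 of 8 higher. The log2 ratios of *Stat2*, *Irf9* and *Irf7* in Nrf1 over LacZ samples were below the median of every marker list in that comparison. Those of *Stat2* and *Irf9* were within the range of the fibroblast markers (lowest -2.43, *Col1a2*). With Nrf2, *Stat2* and *Irf9* (-1.07 and -1.04) lay above the leukocyte and macrophage median of -1.30 and below the fibroblast median of -0.94. The part of the other cells in the values of the receptor, STAT and IRF genes was not tested.

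**Figure D5:**
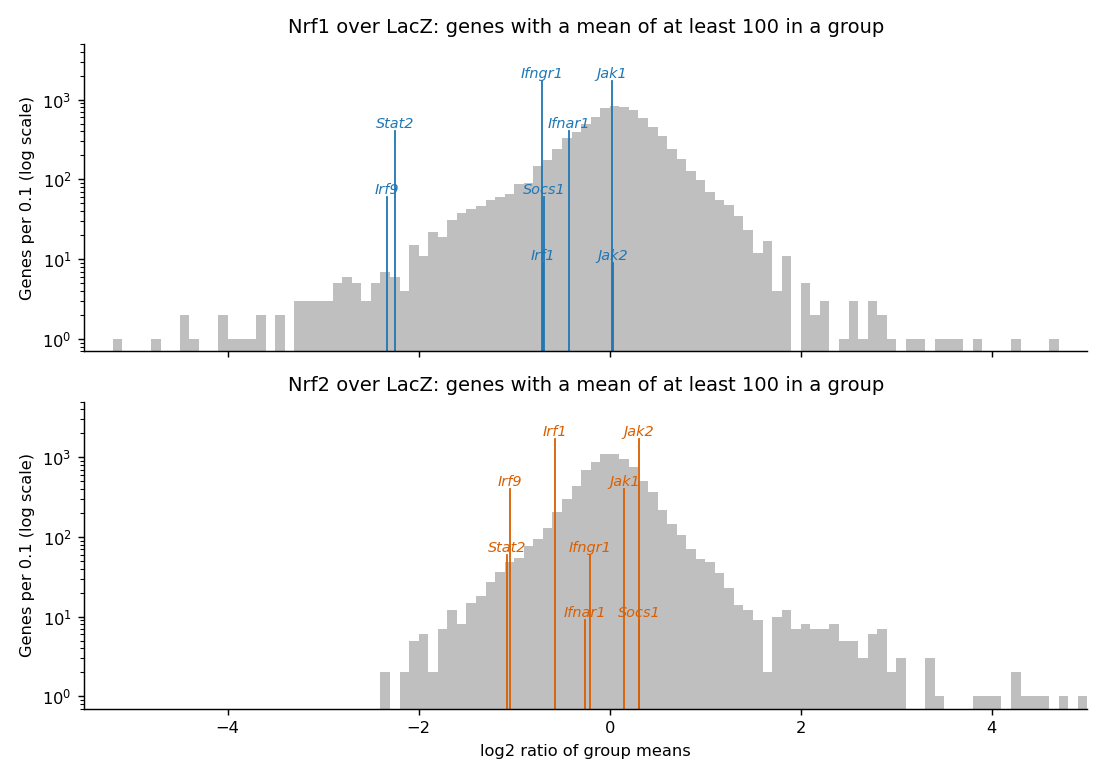
Number of genes per 0.1 of log2 ratio (log axis) among genes that reached a mean of 100 in a group, for Nrf1 over LacZ (top) and Nrf2 over LacZ (bottom), with the 8 genes marked at their ratios; *Socs1* is marked although its means are under 100, and line heights only separate the labels. *Stat2* and *Irf9* stand in the lower tail, and *Jak1* and *Jak2* stand near the centre with Nrf1.

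For each gene past 1.5-fold, the genes with the most similar values were taken by distance. The distance was that between pairs of log2 ratios, Nrf1 over LacZ and Nrf2 over LacZ. It was ranked among 8459 genes that reached a mean of 100 in both tables, with the examined genes left out. The pairs cover 3 groups and share their LacZ libraries, so the distance is a description. *Stat2* and *Irf9* were thus not ranked for each other, although their log2 ratios lay 0.09 apart with Nrf1 and 0.03 apart with Nrf2. For *Stat2* the nearest genes were *Hsd11b1*, an enzyme that regenerates active glucocorticoid (distance 0.022), *Fbln5*, a protein of elastic fibres (0.118), and *Siglec1*, a macrophage lectin (0.136). For *Irf9* they were *Hsd11b1* (0.073), *Fbln5* (0.085) and *Sp110*, a nuclear body protein (0.123). *Ifngr1* was nearest to *Ampd2*, *Slc17a5* and *Pdcd4*, with distances of 0.035 or less, and *Irf1* to *Ptprj*, *Timp2* and *Fgl2*, with distances of 0.025 or less. For *Socs1*, whose ratios rest on few reads, the nearest were *Ptgs2*, *Upk1b* and *Ror1*.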

How the data were processed

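RNA of infected NRVMs (groups LacZ, Nrf1 and Nrf2) was sequenced by the authors as stranded mRNA libraries with 75-bp single-end reads. Per the paper's methods and the submitters' processing notes, reads were checked with FastQC 0.11.4, aligned to Rnor 6.0 with HISAT2 2.0.4, cleared of duplicates with samtools 0.1.18 and counted per gene with featureCounts 1.6.0. Removing duplicates from single-end reads can lower the counts of highly expressed genes. The signal used here is the authors' deposited mean per group of counts divided by size factors, computed separately for each of 3 pairs of groups. The tables also hold fold changes, p-values and adjusted p-values of the authors' own comparisons, which were not used. For differential expression the paper's methods name edgeR 3.20.5, and whether it also gave the deposited means was not examined.

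The log2 ratio of the 2 deposited means was computed in Python 3.11.15 with pandas 2.3.3, with no pseudocount and no filter. Reads behind a mean were estimated from the 3 recurring lowest values of a group, assuming the same normalized level in its libraries, and a low value counted as whole within 2e-05. The exact (Clopper-Pearson) 95% interval of the ratio given the total reads was computed with scipy 1.17.1. Nothing in the labels says that the 3 libraries of a group came from separate cultures. The steps, calls and intervals were tested on simulated data drawn with counting error alone and the same level in each library. Spread between libraries was therefore not part of that test.

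Genes, gene lists and the naming rule were chosen with earlier results of these data known. The rule named every gene examined and any gene of the receptor, JAK, STAT, IRF, inhibitor and ligand lists. It took the 3 largest absolute log2 ratios in each table with LacZ from the target list and from the other JAK-using receptors. Only genes that reached a mean of 100 in a group were ranked for this. It also named the 3 nearest genes, outside the examined genes, of each gene past 1.5-fold in either of those tables. Any further gene was named with its values in view. The alternatives were a fold cutoff of 2, a pseudocount of 1, a mean of at least 100, re-centring on the median gene, and Nrf2 over Nrf1 taken from the 2 tables with LacZ. The sequence reference at hand was of the mouse, so no sequences are printed. Some genes of the lists are not reported here and were left out of the lists' counts and medians.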

Additional observations from a re-analysis of the deposited data

How the results depend on the processing

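At a fold cutoff of 2, the number of the 8 genes lower with Nrf1 was 2 (*Stat2* and *Irf9*) in place of 5. With genes under a mean of 100 removed, which leaves out *Socs1*, the median log2 ratio in Nrf2 over Nrf1 samples was 0.27 in place of 0.38. Re-centring added *Irf1* to the genes lower with Nrf2, 3 in place of 2. The other counts of the 8 genes stayed within 1.5 times, their other medians moved by at most 0.1, and no ratio past 1.5-fold changed sign under any alternative run. Leaving out a library was not done, since the tables hold group means, so how far 1 library decides a value is not known. No paired analysis was possible because the replicate numbers of the labels are not carried by any column. The same removal, which leaves fewer genes, took the IRF genes lower from 6 to 3 with Nrf1 and from 4 to 2 with Nrf2, the inhibitors lower with Nrf1 from 5 to 3, and the other JAK-using receptors lower from 10 to 3 with Nrf1 and from 8 to 2 with Nrf2, and it removed *Stat4* and *Irf4*. The log2 ratio of *Jak1* with Nrf1 was -0.03 after re-centring. The reads behind *Socs1* and *Ifnb1* limit what can be said of them.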

Other observations

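Receptors of other cytokines that use JAK kinases were set beside the interferon receptors. Of 22 such genes with values, 20 were above 0 in both groups of the table for Nrf1, where 10 were 1.5-fold lower and 0 higher (21.9% and 13.5% of all genes), with a median log2 ratio of -0.58. In the table for Nrf2, 21 were above 0 in both groups, 8 were lower and 2 higher (14.1% and 12.9% of all genes), with a median of -0.36. Only 9 of these receptors reached a mean of 100 in the table for Nrf1 and 10 in that for Nrf2. Of these, 3 were lower with Nrf1, beside 11.9% of all genes at that level. With Nrf2, 2 were lower and 1 higher, beside 6.66% and 7.64%. *Csf2rb*, the shared chain of the receptors for interleukin-3, interleukin-5 and GM-CSF, had log2 ratios of -1.47 with Nrf1 and -1.63 with Nrf2. *Osmr*, the oncostatin M receptor, had a mean of 592 in LacZ and 283 in Nrf1 samples (log2 ratio -1.06) and of 633 in LacZ and 362 in Nrf2 samples (log2 ratio -0.81). *Crlf2*, the receptor chain for thymic stromal lymphopoietin, had log2 ratios of -0.80 and -0.24. *Il13ra1*, a receptor chain for interleukin-13, was among those higher with Nrf2, with log2 ratios of 0.22 with Nrf1 and 0.69 with Nrf2.

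*Il6st*, chosen after its values were seen, encodes the shared signalling chain gp130 and had log2 ratios of -0.03 with Nrf1 and -0.12 with Nrf2.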
